A study of Homo sapiens with 9 samples.

Results

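The 10 RS-rich genes of the splicing machinery and of nuclear speckles that were followed across the 9 libraries are RSRP1, LUC7L, LUC7L2, LUC7L3, SRRM1, SRRM2, SON, TRA2A, TRA2B and ARGLU1. Members were chosen by gene symbol, and the list was drawn up with results of these libraries known, so the members' changes are given as a description, without p-values. Exact symbols matched 10 of the 46846 rows of the deposited table. Those 10 rows cover 9 of the 10 symbols, because RSRP1 has 2 rows. LUC7L2 occurred only in 1 row that it shares with FMC1, and that joint row is described beside the others without being counted among them. All 10 rows had a mean of at least 10 normalised reads over the 9 libraries, the minimum for testing, which 16846 rows of the table passed.

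The RNA came from cultures of the line MDA-MB-231, derived from a triple-negative carcinoma of the human breast, and was selected for poly-A tails before sequencing. Cells were treated 24 h after seeding, and each of the 3 groups had 3 libraries. The groups were DMSO, the solvent control, with a labelled time of 12 h, indisulam at 3.3 µM for 12 h, and pladienolide B at 10 nM for 6 h. Indisulam is an aryl sulfonamide that glues RBM39, a splicing factor, to the ubiquitin ligase receptor DCAF15, after which RBM39 is degraded. Pladienolide B is a macrolide that occupies SF3b, the part of the U2 snRNP that contacts the branch site of introns. The design thus implies the question of how each splicing drug changed these transcripts relative to the solvent. A single cell line was used, and the labels do not say whether the libraries of a group came from separate cultures, so the spread between them may be technical. Pladienolide B was given for another time than both other groups, so in every comparison with it, that with DMSO included, compound and time cannot be told apart.

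RS domains are stretches rich in serine and arginine that are phosphorylated and that mediate contacts between splicing proteins. Many proteins that carry them gather in nuclear speckles, bodies next to sites of transcription where splicing factors are stored and modified. Several genes that encode RS proteins contain detained introns, which are spliced slowly, so that polyadenylated transcripts holding them stay in the nucleus. Values here are counts per gene, which do not separate spliced from intron-containing RNA, and reads within introns were not analysed here.

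The label "RS-rich" was checked against the coding sequences in GENCODE 29 (GRCh38). Serine and arginine codons next to each other were counted in frame. Over 18985 coding genes the median was 0.761 such pairs per 100 codons and the 95th percentile 1.98. All 10 symbols lay above that percentile. RSRP1, a small protein about which little is known, was the richest, with 59 pairs in 290 codons, or 20.3 per 100. TRA2B followed with 17.4, TRA2A with 14.2 and SRRM2 with 12.0. SRRM2 had the most pairs, 331 in 2752 codons. SON was the poorest of the 10, with 3.83 per 100. The richest windows of 20 codons are shown for 4 members to display what an RS repeat looks like at the nucleotide level. Arginine codons are in capitals, and each sequence reads 5′ to 3′ on the coding strand.

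RSRP1, codons 106 to 125: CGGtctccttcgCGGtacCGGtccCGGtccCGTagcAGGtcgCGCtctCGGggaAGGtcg
TRA2B, codons 42 to 61: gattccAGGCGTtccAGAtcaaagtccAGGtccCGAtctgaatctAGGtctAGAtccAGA
SRRM1, codons 273 to 292: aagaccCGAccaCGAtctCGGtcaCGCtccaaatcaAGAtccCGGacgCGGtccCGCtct
LUC7L3, codons 309 to 328: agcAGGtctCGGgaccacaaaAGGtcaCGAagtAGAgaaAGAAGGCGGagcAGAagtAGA

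The RSRP1 and TRA2B windows each held 13 adjacent serine and arginine pairs, and the SRRM1 and LUC7L3 windows each held 11. In all 4, arginine is written both with codons that begin with CG and with codons that begin with AG.

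The label "detained introns" could be set only beside the annotation, which does not say whether an intron is detained in the nucleus. The shares of all coding genes with such annotated transcripts were not computed, so nothing particular to the members is read from the counts below. In GENCODE 29 all 10 symbols had at least 1 transcript classed as having a retained intron, from 1 for ARGLU1 to 13 for SRRM2. For 6 symbols such a transcript kept a whole intron of the main isoform. These were 10 introns of 92 to 2300 bases, all beginning with GT and ending with AG. All but ARGLU1, 9 of the 10, also had a transcript annotated as a target of nonsense-mediated decay, the pathway that degrades mRNA with an early stop codon. The 3′ ends of 6 of these introns are shown because that is where the branch site and the pyrimidine tract lie, which the target of pladienolide B helps to recognise. Each line gives the last 40 bases of the intron in lower case and the first 3 bases of the next exon in capitals, 5′ to 3′ on the gene's strand (GRCh38).

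RSRP1 intron 3 of 4, chr1:25243634-25245149, minus strand: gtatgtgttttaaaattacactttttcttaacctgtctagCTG
SRRM1 intron 14 of 16, chr1:24669588-24670119, plus strand: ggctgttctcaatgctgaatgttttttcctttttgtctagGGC
SRRM2 intron 6 of 14, chr16:2759048-2759139, plus strand: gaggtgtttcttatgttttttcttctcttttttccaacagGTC
TRA2A intron 7 of 7, chr7:23505570-23505745, minus strand: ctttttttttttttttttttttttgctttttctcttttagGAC
TRA2B intron 4 of 8, chr3:185922127-185923795, minus strand: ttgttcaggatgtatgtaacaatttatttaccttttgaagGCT
ARGLU1 intron 2 of 3, chr13:106557132-106559431, minus strand: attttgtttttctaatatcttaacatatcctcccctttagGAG

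The introns of SRRM2 and TRA2A were short, at 92 and 176 bases, while that of ARGLU1 spanned 2300 bases. The TRA2A intron ends in an almost unbroken run of T, whereas the TRA2B intron has a tract interrupted by A and G.

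Each library held between 59312100 and 83910831 reads, and 3 reads, below which a row at 0 cannot be told from a low one, equalled 2.48 to 3.87 normalised reads. Of the 5 markers listed as high in this line, VIM ranged from 113029 to 194494 normalised reads over the 9 libraries. CAV1 ranged from 79832 to 153443, AXL from 71048 to 135537 and CD44 from 47307 to 82829. EGFR was lower, at 4966 to 11119. Of the 5 markers listed as low in this line, ESR1 stayed between 0 and 2.04, PGR between 0 and 1.68 and CDH1 between 54.7 and 117, whereas EPCAM (961 to 1895) and ERBB2 (5102 to 5977) were not near 0. The summed level of 4 leukocyte markers ran from 50.3 to 60.2 in DMSO and from 51.7 to 65.9 after indisulam. After pladienolide B it ran from 72.2 to 121. For 5 fibroblast markers the summed level ran from 902 to 1196 in DMSO and from 897 to 1309 after indisulam. With pladienolide B that sum ran from 928 to 1491. After the authors' normalisation the library totals with pladienolide B were 1.39 times those in DMSO. Setting all libraries to the same total therefore lowered the median log2 change of all tested rows by 0.47 for pladienolide B and by 0.05 for indisulam. This scaling decides several directions with pladienolide B, and for the members both values are given where it does. In bulk RNA, fewer cells and less RNA per cell cannot be told apart.

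With indisulam, 6 of the 10 rows rose, none fell and 4 did not pass the test (limma, adjusted p under 0.05). The rows that rose were the gene-proximal row of RSRP1, SRRM1, SON, TRA2A, SRRM2 and LUC7L. Of all tested rows 14.5% rose and 12.4% fell. No row fell at an unadjusted p under 0.05 with limma or DESeq2, while edgeR called 1 lower, TRA2B. The median log2 change of the 10 rows was 0.43, and that of all tested rows 0.05. Values of the 3 treated and 3 DMSO libraries did not overlap for 7 rows that were higher and 1 that was lower, against 27.4% and 21.0% of all tested rows.

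With pladienolide B, 7 of the 10 rows rose, 2 fell and 1 did not pass. SRRM1, RSRP1 (gene-proximal), TRA2B, SON, ARGLU1, SRRM2 and TRA2A rose, and LUC7L and LUC7L3 fell. Of all tested rows 34.3% rose and 35.5% fell. With the same total per library the split became 4 higher and 5 lower, against 16.2% and 53.9% of all rows. The median log2 change of the members was 0.40, or -0.08 with the same total, and that of all tested rows -0.01. Treated and DMSO values did not overlap for 6 higher and 2 lower rows, against 35.5% and 36.3% of all tested rows. Both drugs were compared with the same 3 DMSO libraries. As called, 5 rows were higher with both drugs, 1 (LUC7L) was higher with indisulam and lower with pladienolide B, and 1 (the distal RSRP1 row) passed with neither. The shares of all tested rows in these classes were not computed, so nothing is read from these counts. With the same total per library SRRM2 (-0.19) and TRA2A (-0.28), both among the 5, were called lower with pladienolide B.

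**Figure D1:**
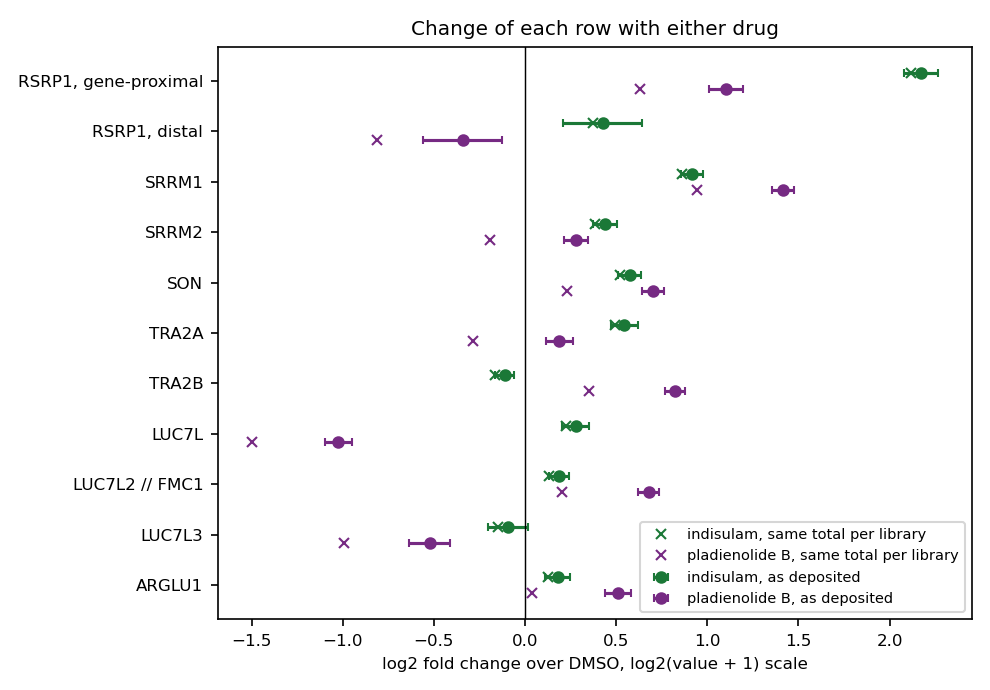
Log2 fold change over DMSO (x axis, log2(value + 1) scale) of the 10 rows and the joint LUC7L2 // FMC1 row (y axis), with indisulam in green and pladienolide B in purple. Circles with bars are the fold change ± SE on the deposited values, and crosses are the same change with libraries set to the same total, which lie 0.47 lower for pladienolide B and 0.05 lower for indisulam in the median of all rows.

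RSRP1 showed the largest change of the members with indisulam. Its gene-proximal row (GSHG0002172, chr1:25242249-25267925, hg38) holds all but the last few bases of the main isoform, RSRP1-201. The whole gene in GENCODE 29 is longer, chr1:25242237-25338213. In the DMSO libraries it had 590.6, 727.0 and 637.9 normalised reads. With indisulam it had 3123, 2703 and 2980, and with pladienolide B 1479, 1313 and 1402. The 3 groups did not overlap, with pladienolide B between the others. Means were 652 ± 69.3, 2935 ± 213 and 1398 ± 83.1 (SD, n = 3 each), a ratio to DMSO of 4.50 with indisulam and 2.14 with pladienolide B. The log2 changes were 2.17 ± 0.09 (SE) and 1.10 ± 0.09, or 2.12 and 0.63 with the same total per library. Between the drugs, the row was 1.07 ± 0.09 lower on the log2 scale with pladienolide B (log2 change -1.07).

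The other RSRP1 row (GSHG0002175, chr1:25302735-25338254) lies almost wholly within that longer gene, upstream of the start of RSRP1-201, and holds no exon of the GENCODE basic set for RSRP1. Its nearer end lies 55.2 kb upstream of the RSRP1-201 start, and it overlaps RHD, which encodes the Rh blood group antigen D and had a mean of 0.226 normalised reads. Its far end overlaps the GENCODE span of TMEM50A. The DMSO libraries had 117.3, 133.7 and 124.3 normalised reads in this distal row. Indisulam libraries had 196.0, 185.5 and 130.6, and pladienolide B libraries 108.4, 73.5 and 119.2. Pladienolide B values overlapped those of DMSO, and 1 indisulam library lay within the DMSO range. The log2 changes were 0.43 ± 0.22 with indisulam and -0.34 ± 0.22 with pladienolide B, neither called, although with the same total per library the pladienolide B value of -0.81 was called lower. Between the drugs the row was called lower with pladienolide B (-0.77 ± 0.22).

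The distal row thus made up a smaller part of the reads of both RSRP1 rows after either drug. It held 16.6%, 15.5% and 16.3% in DMSO, 5.91%, 6.42% and 4.20% after indisulam and 6.83%, 5.30% and 7.84% after pladienolide B. The treated shares overlapped each other and lay below every DMSO share. A scaling factor per library cancels in this share. Of the flanking genes, TMEM50A had 6996 ± 210, 8525 ± 61.8 and 8483 ± 731 normalised reads in DMSO, indisulam and pladienolide B. SYF2, a spliceosome-associated protein, had 2644 ± 125, 3469 ± 42.9 and 2989 ± 205. An unnamed row within the gene-proximal span (GSHG0002173) had 88.0 ± 26.0, 165 ± 8.31 and 163 ± 26.0. Another unnamed row within the distal span (GSHG0002177) had 51.1 ± 8.63, 73.8 ± 5.75 and 80.7 ± 18.8, so its mean was higher than in DMSO with pladienolide B, while that of the distal row was lower. How far reads of neighbouring rows enter the counts was not tested.

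**Figure D2:**
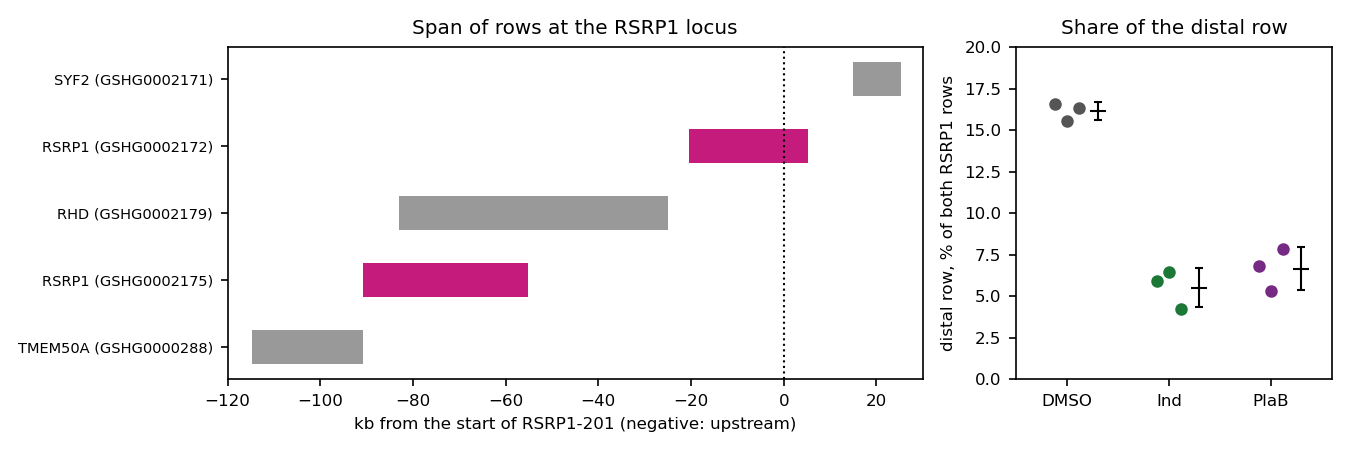
Left, spans of the table's rows around RSRP1 on a scale of kb from the start of RSRP1-201, negative upstream, with the 2 RSRP1 rows in pink and neighbours in grey. Right, the share of the distal row in the reads of both RSRP1 rows (y axis, %) for each library of DMSO, indisulam (Ind) and pladienolide B (PlaB), with mean ± SD in black. The 3 DMSO libraries lie above 15%, and the 6 treated ones below 8%.

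SRRM1, SRRM2 and SON encode large speckle proteins, and all 3 rose with both drugs on the deposited values. SRRM1 and SRRM2 are splicing coactivators that bridge SR proteins, and SRRM2 and SON form the core on which speckles assemble. SRRM1 (GSHG0000281, chr1:24643100-24673281) had 12853, 13734 and 14126 normalised reads in DMSO. With indisulam it had 25573, 25084 and 26101, and with pladienolide B 33335, 38156 and 37071. No groups overlapped, and the order was DMSO, indisulam, pladienolide B. Ratios to DMSO were 1.89 and 2.67, and log2 changes 0.92 ± 0.06 and 1.41 ± 0.06. With the same total per library the changes were 0.86 and 0.94. The drugs then differed by 0.08, compared with 0.50 ± 0.06 on the deposited values, and by 0.00 with quantile normalisation, so the order of the drugs at SRRM1 depends on the scaling.

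SON (GSHG0027712, chr21:33535336-33577512) had 3510, 3654 and 3702 normalised reads in DMSO, 5471, 5232 and 5474 with indisulam and 5669, 6335 and 5702 with pladienolide B. Both treated groups lay above every DMSO library. Its log2 change was 0.57 ± 0.06 with indisulam and 0.70 ± 0.06 with pladienolide B, or 0.23 with the same total. The drugs were not called different for SON on the deposited values (0.13 ± 0.06), but were without pladienolide B replicate 1 (0.16). With the same total per library SON was lower with pladienolide B than with indisulam (-0.29). SON overlaps 2 neighbours, GART by 7557 bases and DONSON by 2036, and the strand setting of the count is not given in the sources used here, so reads in those stretches cannot be assigned to 1 gene with certainty. GART, an enzyme of purine synthesis, was at 10872 ± 194, 8199 ± 722 and 11844 ± 459 normalised reads in DMSO, indisulam and pladienolide B. DONSON, a replication fork protein, was at 2984 ± 123, 2840 ± 64.0 and 2190 ± 183. Ratios to DMSO were 0.754 and 1.09 for GART and 0.952 and 0.734 for DONSON with indisulam and pladienolide B, compared with 1.49 and 1.63 for SON.

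SRRM2 (GSHG0016082, chr16:2752626-2771412) had 2853, 3081 and 3146 normalised reads in DMSO, 4249, 4120 and 3943 with indisulam and 3437, 3869 and 3728 with pladienolide B. No groups overlapped, and indisulam was highest. The log2 change was 0.44 ± 0.07 with indisulam. With pladienolide B it was 0.28 ± 0.07 on the deposited values and -0.19 with the same total, so its direction with this drug depends on the scaling. SRRM2 was called lower with pladienolide B than with indisulam (-0.16 ± 0.07), a call lost when any library but pladienolide B replicate 2 was left out (-0.20 to -0.11 over all 9). An unnamed row inside SRRM2 (GSHG0016939) had means of 364, 475 and 498 normalised reads in DMSO, indisulam and pladienolide B.

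**Figure D3:**
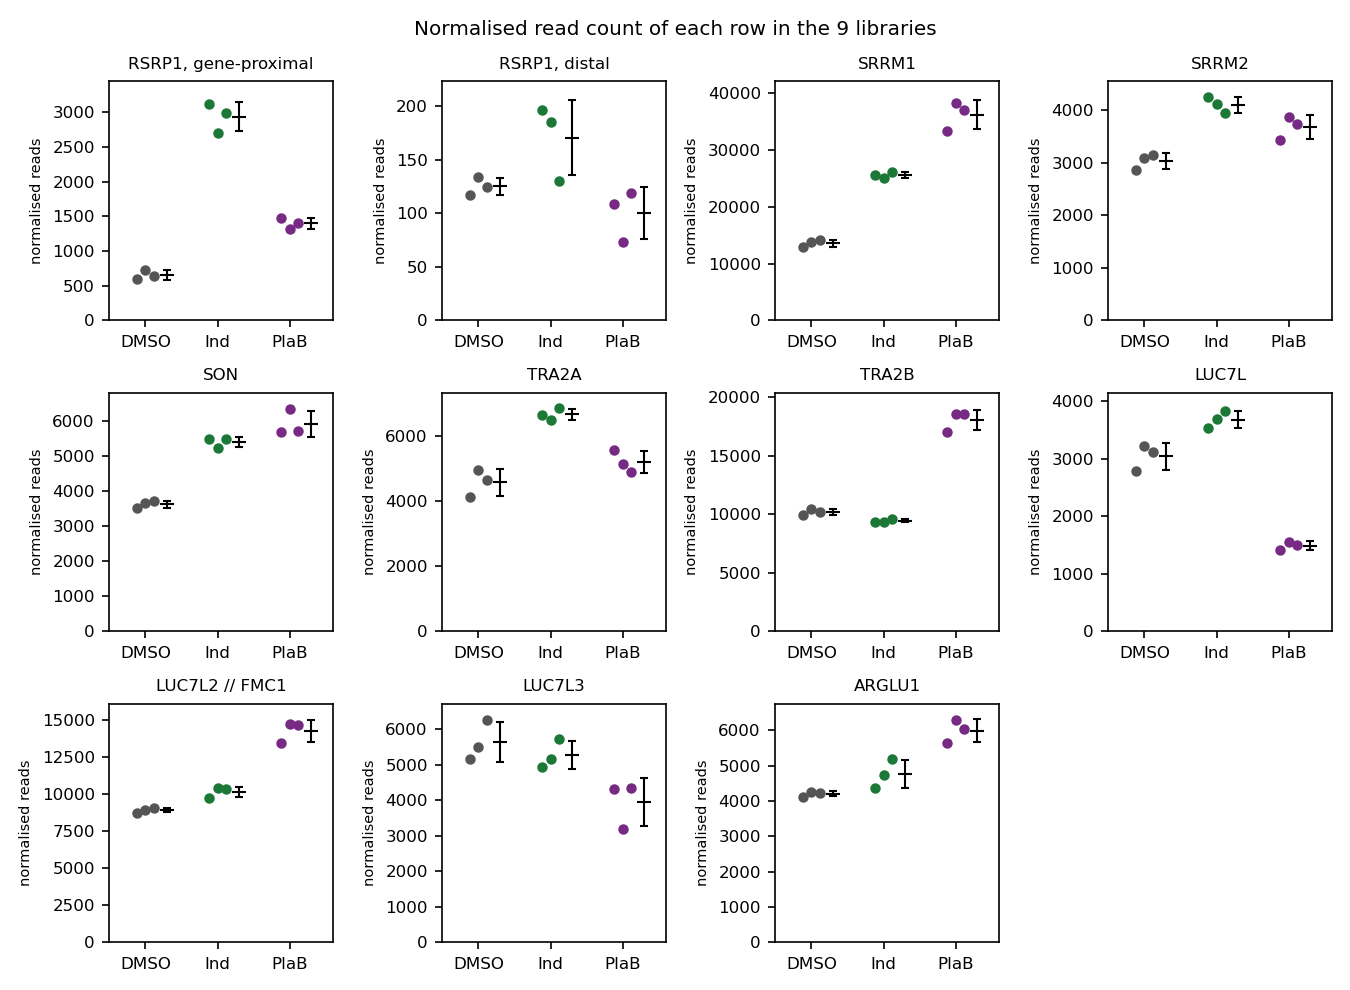
Normalised reads (y axis, from 0, a separate scale per panel) of each row in DMSO, indisulam (Ind) and pladienolide B (PlaB). Points are the 3 libraries of a group and the black mark is mean ± SD. The gene-proximal RSRP1 row and TRA2A are highest with indisulam, SRRM1 and TRA2B are highest with pladienolide B, and LUC7L is lowest with pladienolide B.

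TRA2A and TRA2B are paralogues that bind GAA-rich exonic enhancers and promote inclusion of the exons that hold them. Between the 2 drugs, TRA2A was higher with indisulam and TRA2B with pladienolide B. TRA2A (GSHG0040336, chr7:23504780-23532002) had 4120, 4941 and 4652 normalised reads in DMSO and 6637, 6483 and 6844 with indisulam. With pladienolide B it had 5553, 5151 and 4895. The indisulam libraries lay above all others, and 1 pladienolide B library lay within the DMSO range. The log2 change was 0.55 ± 0.07 with indisulam, a ratio of 1.46. The call with pladienolide B (0.19 ± 0.07) was not kept with TMM scaling (0.11), and the sign turned with the same total per library (-0.28). It was also lost without DMSO replicate 1 (0.12), DMSO replicate 3 (0.20) or pladienolide B replicate 1 (0.14).

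TRA2B (GSHG0032044, chr3:185914558-185938120) had 9976, 10433 and 10215 normalised reads in DMSO, 9354, 9394 and 9614 with indisulam and 17053, 18617 and 18561 with pladienolide B. Its pladienolide B values lay far above the other 6 libraries. The log2 change with pladienolide B was 0.82 ± 0.05, or 0.35 with the same total, and the ratio of means 1.77. The indisulam values all lay below the DMSO values, with a log2 change of -0.11 ± 0.05 that was not called, while TMM scaling (-0.15), the same total (-0.16) and quantile normalisation (-0.14) called it lower. TRA2B was higher with pladienolide B than with indisulam by 0.93 ± 0.05, and by 0.52 with the same total, whereas for TRA2A the same difference was -0.36 ± 0.07.

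The LUC7L family comprises homologues of yeast Luc7, a U1 snRNP protein, and takes part in the choice of 5′ splice sites. With pladienolide B LUC7L and LUC7L3 both fell, while the row that LUC7L2 shares with FMC1 rose. LUC7L (GSHG0016846, chr16:188969-229450) had 2783, 3227 and 3126 normalised reads in DMSO, 3531, 3694 and 3833 with indisulam and 1418, 1555 and 1509 with pladienolide B. No groups overlapped. With pladienolide B its mean was 0.491 times that of DMSO, and it fell by 1.03 ± 0.07 on the log2 scale, and by more with the same total (-1.497). With indisulam it rose by 0.28 ± 0.07. Leaving out DMSO replicate 1 (0.21) or indisulam replicate 3 (0.25) ended that call. LUC7L was thus the member whose calls with the drugs had opposite signs, and the drugs differed by -1.30 ± 0.07.

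LUC7L3 (GSHG0018362, chr17:50719598-50756219) had 5152, 5490 and 6243 normalised reads in DMSO and 4936, 5161 and 5707 with indisulam, which overlapped. With pladienolide B it had 4308, 3180 and 4347, below every other library. It fell by 0.52 ± 0.11 on the log2 scale with pladienolide B, or by 0.99 with the same total, while the indisulam change of -0.09 ± 0.11 was not called. Pladienolide B replicate 2 was the lowest library for this gene, as it was for the distal RSRP1 row. Without it, the difference of LUC7L3 between the drugs was -0.28 instead of -0.43 ± 0.11 and that from DMSO -0.37.

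The joint row of LUC7L2 and FMC1 (GSHG0040002, chr7:139340359-139423459) had 8758, 8956 and 9066 normalised reads in DMSO, 9773, 10405 and 10324 with indisulam and 13429, 14771 and 14686 with pladienolide B. FMC1 is a mitochondrial assembly factor, and reads of the 2 genes cannot be separated in this row. It rose by 0.68 ± 0.06 on the log2 scale with pladienolide B, or 0.21 with the same total. The rise of 0.19 ± 0.06 with indisulam was not called with TMM scaling (0.14) or the same total (0.13). Leaving out any 1 DMSO library, or indisulam replicate 2 or 3, also ended the call (0.17 to 0.20).

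ARGLU1 encodes an arginine- and glutamate-rich protein that acts as a coactivator of nuclear receptors and modulates splicing. ARGLU1 (GSHG0011873, chr13:106541673-106568164) had 4122, 4249 and 4233 normalised reads in DMSO, 4381, 4742 and 5184 with indisulam and 5640, 6302 and 6038 with pladienolide B. The 3 groups did not overlap. The log2 change was 0.51 ± 0.07 with pladienolide B, but 0.04 and not called with the same total per library. The change of 0.18 ± 0.07 with indisulam was not called, although it was without indisulam replicate 1 (0.24) and with quantile normalisation (0.18).

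Between the drugs, 3 of the 10 rows were called higher with pladienolide B (SRRM1, TRA2B and ARGLU1) and 6 lower (both RSRP1 rows, SRRM2, TRA2A, LUC7L and LUC7L3), with SON not called. Of all tested rows 34.7% were higher and 35.6% lower. With the same total per library 1 row, TRA2B, was higher and 7 were lower, against 17.9% and 50.4% of all rows.

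Levels were compared between genes per kb of exon, merged over the GENCODE basic transcripts, on the deposited scale in DMSO. SRRM1 (3423 ± 165 normalised reads per kb) and TRA2B (3363 ± 75.3) were the highest, and their libraries overlapped. TRA2A followed at 2081 ± 189, with no library overlapping its neighbours in this order. The joint row, whose reads cannot be assigned to LUC7L2 alone, is left out of this order. ARGLU1 (1239 ± 20.4) and LUC7L (1216 ± 93.0) overlapped, LUC7L3 was at 797 ± 79.1, and SON (326 ± 8.97) and SRRM2 (322 ± 16.4) overlapped. The gene-proximal row of RSRP1 was lowest, at 254 ± 27.0 per kb. This order depends on the length used. Merged exons within the gene-proximal RSRP1 row held 2568 bases, compared with 1502 in RSRP1-201. For LUC7L3 they held 7060 bases, compared with 1972 in its main isoform. The rows of SON and TRA2B also reach beyond their GENCODE genes, and those stretches added no bases to the length. An order per kb of the main isoforms was not computed.

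The members did not share 1 pattern over the 9 libraries. Pearson's r of log2(value + 1) with the gene-proximal RSRP1 row was 0.95 for TRA2A and 0.94 for SRRM2, 0.76 for SON and 0.64 for SRRM1. For LUC7L it was 0.19, for TRA2B -0.10 and for LUC7L3 -0.13. These values are descriptions over 9 libraries in 3 groups that share their controls. Among 11526 other rows with a symbol and a mean of at least 100, the rows most like RSRP1 were THRAP3 (r = 0.994), RRAGB (0.985), JRK (0.983), LOC220729 (0.980) and LINC00472 (0.979). THRAP3, itself an RS-rich protein of transcription and splicing complexes, had 6183 ± 168 normalised reads in DMSO, 9338 ± 47.6 after indisulam and 7753 ± 234 after pladienolide B. Its log2 change with pladienolide B was 0.33 ± 0.05, and -0.15 with the same total per library. RRAGB, a GTPase of the amino acid sensing pathway to mTORC1, had 1068 ± 39.7, 2590 ± 112 and 1494 ± 132.

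A list of 36 other RS-rich or speckle genes, all of them tested, is set beside the members. Their serine and arginine pairs were not counted. This list too was chosen with earlier results of these data known. The adjusted p-values printed below for its genes, and for CLK1, CLK4 and RBM39, are therefore descriptions and not independent tests. With indisulam 11 of these 36 rose, 1 fell and 24 did not pass, with a median log2 change of 0.12. With pladienolide B 10 rose, 18 fell and 8 did not pass, with a median of -0.26. Using the same total per library, 4 were higher and 26 lower with pladienolide B, and the median was -0.74. Shares of all tested rows are those given above for each drug.

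With indisulam the 3 largest rises on this list were those of NKTR, BCLAF1 and PRPF38B. NKTR, a cyclophilin with RS repeats, had 651.0, 757.5 and 765.2 normalised reads in DMSO and 1642, 1371 and 1470 with indisulam, a log2 change of 1.04 ± 0.18 (limma adjusted p = 0.000879). BCLAF1, the paralogue of THRAP3, changed by 0.69 ± 0.10 (limma adjusted p = 0.000327), and PRPF38B, a spliceosome protein, by 0.66 ± 0.09 (limma adjusted p = 0.000246). Treated and DMSO values of these 3 genes did not overlap. The 1 gene that fell was RSRC2, an RS-rich coiled-coil protein. RSRC2 had 4928, 5085 and 5309 normalised reads in DMSO and 3293, 3457 and 3790 with indisulam, a log2 change of -0.54 ± 0.09 (limma adjusted p = 0.000526).

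With pladienolide B the largest rises on the list were those of CCNL1, PRPF38B and RSRC2, and the largest falls those of PNISR, SCAF4 and SCAF11. CCNL1, cyclin L1, a partner of the CDK11 kinases, had 700.4, 788.9 and 783.6 normalised reads in DMSO and 3358, 2786 and 3697 with pladienolide B. Its log2 change was 2.10 ± 0.10 (limma adjusted p = 6.13e-10), or 1.63 with the same total per library. PRPF38B rose by 1.47 ± 0.09 (limma adjusted p = 9.99e-09) and RSRC2 by 1.33 ± 0.09 (limma adjusted p = 1.14e-08), or by 1.00 and 0.85 with the same total. RSRC2 libraries with pladienolide B had 13033, 11144 and 14479 normalised reads, above all DMSO and indisulam libraries. The difference of RSRC2 between the drugs was 1.87 ± 0.09 (limma adjusted p = 5.17e-10). This follows from its opposite changes against the same DMSO libraries and is no added support.

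PNISR, an RS-rich nuclear protein, had 1003, 1224 and 1236 normalised reads in DMSO and 457.5, 334.0 and 443.9 with pladienolide B. It fell by 1.49 ± 0.12 on the log2 scale (limma adjusted p = 1.07e-07). SCAF4, which binds the C-terminal domain of RNA polymerase II, fell by 1.45 ± 0.09 (limma adjusted p = 1.00e-08) and SCAF11, a further RS-rich protein, by 1.38 ± 0.18 (limma adjusted p = 1.09e-05). DMSO and treated libraries did not overlap for any of these 3 genes.

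**Figure D4:**
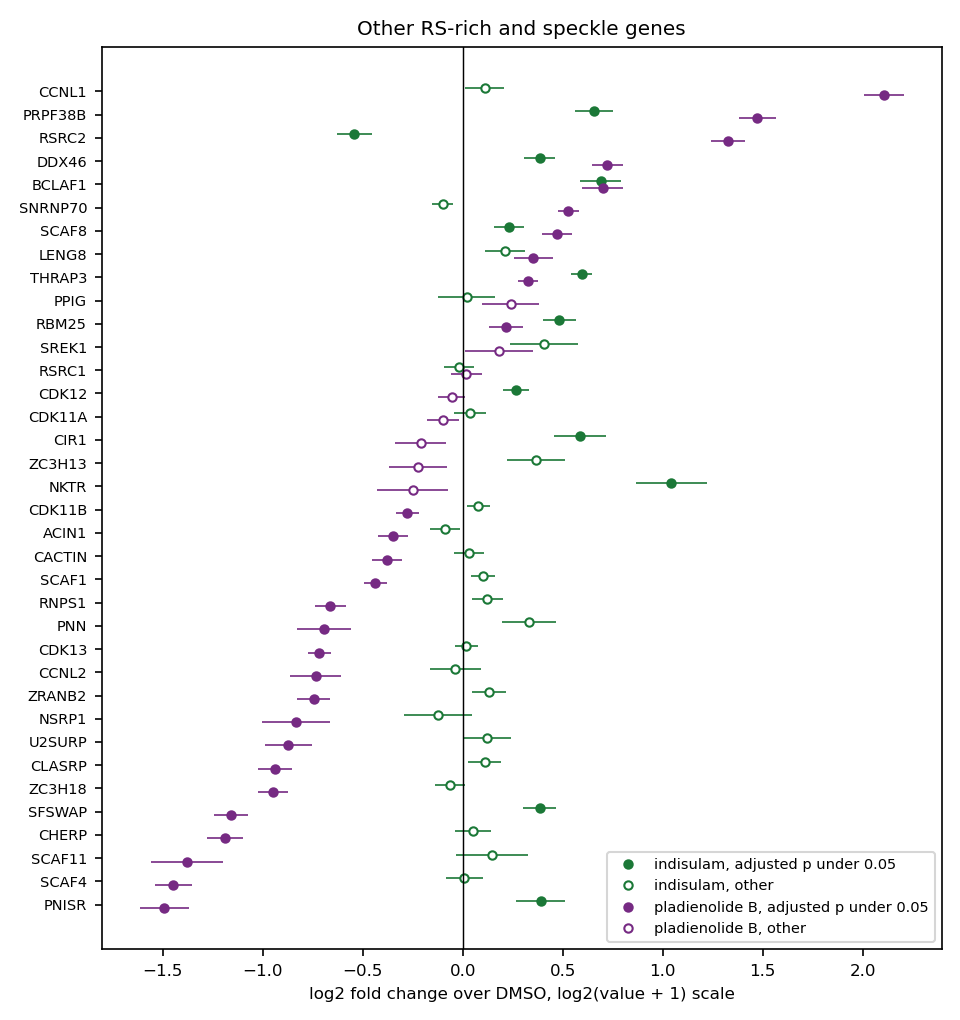
Log2 fold change over DMSO ± SE (x axis, log2(value + 1) scale) of 36 other RS-rich or speckle genes (y axis, ordered by the change with pladienolide B), with indisulam in green and pladienolide B in purple. Filled points have an adjusted p under 0.05 and open points do not. With pladienolide B 18 genes are filled on the left and 10 on the right, and with indisulam 1 and 11.

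CLK1 and CLK4, kinases that phosphorylate RS domains, are textbook cases of genes with detained introns. CLK1 had 2966, 3030 and 2909 normalised reads in DMSO, 4131, 4156 and 4032 with indisulam and 2559, 2283 and 3493 with pladienolide B. It rose by 0.47 ± 0.12 on the log2 scale with indisulam (limma adjusted p = 0.00891). The change of -0.12 ± 0.12 with pladienolide B was not called (limma adjusted p = 0.373), but was called lower with the same total (-0.59) and without pladienolide B replicate 3 (-0.30). Without pladienolide B replicate 2 it was 0.01. CLK4 rose by 0.98 ± 0.15 with indisulam (limma adjusted p = 0.000361). Its change of -0.33 ± 0.15 with pladienolide B was not called (limma adjusted p = 0.0584). That change was called lower with the same total (-0.81), TMM scaling (-0.42) and edgeR (-0.38), but not with quantile normalisation (0.04). It was also called lower without pladienolide B replicate 1 (-0.41) or 3 (-0.48). Without pladienolide B replicate 2 it was -0.11.

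RBM39, the target of indisulam and itself an RS-rich splicing factor, had 14584, 15236 and 15288 normalised reads in DMSO, 38719, 37310 and 36910 with indisulam and 19058, 17380 and 18439 with pladienolide B. Its transcript rose by 1.32 ± 0.05 on the log2 scale with indisulam (limma adjusted p = 1.86e-08). With pladienolide B its log2 change was 0.28 ± 0.05 (limma adjusted p = 0.000247), and the sign turned with the same total (-0.19). Of 8 further speckle genes listed, RBM39 included, 5 were matched by symbol. With indisulam 4 of the 5 rose and 1 did not pass, while 14.5% of all tested rows rose. On the deposited values all 5 rose with pladienolide B, while 34.3% of all tested rows rose. RBM39 and SRSF11 (-0.18) were negative with pladienolide B under the same total. MALAT1, NEAT1 and DDX39B were not matched and are not analysed here.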

How the data were processed

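The 9 MDA-MB-231 libraries were made from poly-A RNA with the Universal Plus mRNA-Seq kit and are typed fr-secondstrand, as the labels' protocols state. STAR 2.7.5a, DESeq2, FastQC, Picard, SAMtools and hg38 are named per the submitters' processing notes. How reads were counted per gene, and with which strand option, is not given in the sources used here. Each deposited signal is a normalised read count, made by the authors with DESeq2 size factors, per the labels and the table's name. All 9 columns were mapped to samples by name. Values were whole multiples of 1 read within a tolerance of 0.01, so reads were recovered for count tests.

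Rows were compared with limma 3.58.1 under R 4.3.3, on log2(value + 1), which understates changes of low genes. All 9 libraries entered 1 fit with a mean per group and variances moderated along a trend. P-values were two-sided and adjusted by Benjamini-Hochberg over the 16846 rows with a mean of at least 10, at 0.05. Errors are SD over 3 libraries or SE of the fit. The fit was tested on simulated data. Libraries of a group differed by more than sampling noise (lowest chi-square per row 8.74). Alternatives were another pseudocount, filter and scaling, edgeR 4.0.16, DESeq2 1.42.0, a replicate block, only the groups compared, and each library left out in turn.

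Members and gene lists were chosen with earlier results of these data known. Named beyond the members were the 3 largest called rises and falls per drug among the RS-rich list, CLK1, CLK4 and RBM39, and the 5 rows most correlated with RSRP1 that do not overlap it. Promoters were not used. Exons, introns and coding sequences came from GENCODE 29. Some listed genes are not reported here.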

Additional observations from a re-analysis of the deposited data

How the results depend on the processing

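All 10 rows lay far above the value of 3 reads. Which scaling is nearer to the RNA content of the cells was not tested. Of 228 counts of called genes recomputed under the alternatives, 217 stayed within 1.5 times the reported count. Among the 228 are fits without a library of a group not compared, where folds cannot change. This share is therefore no measure of how stable the calls are. With the same total per library, members higher with pladienolide B numbered 4 in place of 7, members lower 5 in place of 2, members higher than with indisulam 1 in place of 3, and other RS-rich genes higher with pladienolide B 4 in place of 10. Members lower with indisulam numbered 1 (TRA2B) in place of 0 with TMM, the same total, quantile normalisation and edgeR, and other RS-rich genes lower with indisulam 2 in place of 1 with the same total and quantile normalisation. Deviations of same-numbered libraries correlated positively in all 9 pairs (r 0.0027 to 0.1282), over 0.1 in 3. Of the 18 differently numbered pairs 15 correlated negatively. Whether the numbers mark a pairing was not tested. The labels name nothing that the numbers share, so the reported fit used no block. With the replicate block members lower with indisulam also numbered 1, and ARGLU1 with indisulam (0.18), SON between the drugs (0.13) and CLK4 with pladienolide B (-0.33) were also called. Among the folds recomputed under every alternative (the members, the joint row and 11 other named genes), those that turned sign with the same total were those of SRRM2 (-0.19), TRA2A (-0.28) and RBM39 (-0.19) with pladienolide B and of SON (-0.29) and ARGLU1 (-0.0868) between the drugs. With quantile normalisation those of SRRM1 between the drugs (-0.0019), RBM39 (-0.13) and CLK4 (0.0354) with pladienolide B turned. Leaving out pladienolide B replicate 2 turned that of CLK1, which ranged from -0.2963 to 0.0105 with pladienolide B over the libraries left out. For these the cause was not tested. Over the 9 fits that each left out a library, members higher numbered 5 to 7 with indisulam and 6 to 7 with pladienolide B, and other RS-rich genes higher 8 to 14 and 9 to 12.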
